A study of Mus musculus with 6 samples.

Results

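The genes described here are 6 hormone-responsive genes of the mouse proximal tubule, Kap, Odc1, Gusb, Esr1, Ghr and Prlr, taken by symbol from the 57132 gene rows of a count table of glomerular RNA. Their rows are ENSMUSG00000032758 (Kap, on chromosome 6), ENSMUSG00000011179 (Odc1, 12), ENSMUSG00000025534 (Gusb, 5), ENSMUSG00000019768 (Esr1, 10), ENSMUSG00000055737 (Ghr, 15) and ENSMUSG00000005268 (Prlr, 15). All 6 were found, and all passed the filter on low counts that left 19927 genes for testing. They were chosen by the large rise of Kap in the Cre-positive samples of this table, so their differences between genotypes are given as a description and not as a test. The table holds 6 libraries of polyadenylated RNA from isolated glomeruli, the filtering units of the kidney. Of these, 3 are labelled Cre-/Setdb2fl/fl (Cre_negative) and 3 Cre+/Setdb2fl/fl (Cre_positive), so both groups carry floxed alleles of Setdb2, a putative histone H3 lysine 9 methyltransferase. Every sample is labelled DKD, for diabetic kidney disease, and no group without diabetes is among them. The design text of the series names podocyte SETDB2 in this disease as its question. The sources used here do not give the promoter that drives Cre, the diabetes model, or the age, strain and sex of the mice. Nothing in the labels says that replicates came from separate mice, so the spread between samples may be technical in part.

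The proximal tubule is the stretch of the nephron that takes back most of the filtered solutes, and in the mouse it is a classical target of sex hormones. Testosterone acts there and raises Kap, which encodes the kidney androgen-regulated protein, as well as Odc1 and Gusb. Odc1 encodes ornithine decarboxylase, the first and rate-limiting enzyme of polyamine synthesis, and Gusb encodes the lysosomal hydrolase beta-glucuronidase. Esr1, Ghr and Prlr encode the receptors of estrogen, growth hormone and prolactin, the last of which is known to be more abundant in the kidney of female mice. Growth hormone and prolactin receptors signal through the kinase JAK2 and the transcription factor STAT5.

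The start regions of the 3 genes that were higher in every Cre_positive library, and of Odc1 for contrast, are shown to set the hormone elements searched for beside the levels. RefSeq promoter windows on GRCm38.p6 were matched for 6 of the 6 genes, with 10 windows in all, and the 250 bases before each start were searched on both strands. Prlr has 3 windows and Esr1 has 2, and for both only the second is shown, which held matches. The other windows of these genes held none of the elements. Capitals mark every match.
Kap, chr6:133853668-133853917, minus strand: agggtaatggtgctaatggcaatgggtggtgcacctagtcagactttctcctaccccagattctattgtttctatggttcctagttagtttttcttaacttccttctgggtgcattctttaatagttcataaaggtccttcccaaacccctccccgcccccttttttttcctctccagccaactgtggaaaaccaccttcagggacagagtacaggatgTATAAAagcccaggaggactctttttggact
Prlr, second annotated start, chr15:10223656-10223905, plus strand: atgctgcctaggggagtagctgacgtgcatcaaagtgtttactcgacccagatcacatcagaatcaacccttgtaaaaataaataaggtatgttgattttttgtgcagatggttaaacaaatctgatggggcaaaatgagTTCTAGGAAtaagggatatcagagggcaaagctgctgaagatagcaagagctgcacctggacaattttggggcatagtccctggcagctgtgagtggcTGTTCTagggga
Esr1, second annotated start, chr10:4709908-4710157, plus strand: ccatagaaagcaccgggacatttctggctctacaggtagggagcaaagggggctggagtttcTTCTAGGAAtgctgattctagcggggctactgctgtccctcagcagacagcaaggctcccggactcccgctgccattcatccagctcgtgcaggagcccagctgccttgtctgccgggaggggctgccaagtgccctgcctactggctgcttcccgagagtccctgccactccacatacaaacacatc
Odc1, chr12:17544623-17544872, plus strand: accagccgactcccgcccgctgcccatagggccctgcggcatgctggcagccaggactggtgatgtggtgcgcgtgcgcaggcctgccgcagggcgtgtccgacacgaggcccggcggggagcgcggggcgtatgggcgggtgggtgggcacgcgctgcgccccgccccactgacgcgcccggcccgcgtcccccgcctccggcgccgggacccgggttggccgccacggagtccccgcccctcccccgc
The full palindrome of the androgen response element was in none of the 10 windows, and in 3 of all 32851 windows (0.00913%). Its half-site AGAACA was, of the 10, in the second Prlr window alone, on the reverse strand at bases -12 to -7 from the start, against 16.1% of all windows. The STAT5 element TTCNNNGAA was in the second windows of Prlr (-110 to -102) and Esr1 (-188 to -180), where both read TTCTAGGAA, and in 7.02% of all windows. The full palindrome of the estrogen response element was in none of the 10 and in 0.0639% of all windows. The TATA box TATAAA stood at -31 to -26 in Kap, and on either strand in 12.4% of all windows. Its letters also lay on the reverse strand of the second Ghr window, at -188 to -183. Base composition differed widely: the Kap window held 45.6% G and C with 1 CpG, and the Odc1 window 80.0% with 35 CpG. A match here is a run of letters and not a bound site, and elements farther from the start were not searched.

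The libraries held 53571438 to 58807042 counts, and the 6 genes had between 333 and 388340 counts in each. Setdb2, the targeted gene, had 591, 492 and 370 counts in the Cre_negative and 427, 444 and 391 in the Cre_positive libraries. The ranges overlapped, and counts of the whole gene do not show whether the floxed exons were lost. Cre_positive replicate 2 stood apart in Xist, the RNA of the inactive X chromosome in females, with 24 counts where the other 5 libraries had 36474 to 47632. In none of the 6 was a read counted for Ddx3y, Uty, Kdm5d or Eif2s3y, which lie on the Y chromosome. High Xist without Y reads, as in those 5 libraries, is the pattern of female tissue. Cre_positive replicate 2 had neither high Xist nor Y reads, so its sex cannot be read from these genes. The log2 fold changes of the 6 genes and the counts over each list are therefore also given without Cre_positive replicate 2. All 12 podocyte markers passed the filter, with a summed level of 578 to 655 CPM (counts scaled to library size, with TMM factors) in Cre_negative and 785 to 889 CPM in Cre_positive libraries. The 22 proximal tubule markers summed to 23214 to 29216 and 26032 to 28979 CPM, so tubule RNA was abundant in isolates labelled as glomeruli. Over all 19927 genes tested 3.73% rose and 3.82% fell in edgeR's test, and DESeq2 called 1267 higher and 1430 lower. In edgeR's test these were 743 and 762 genes, but 281 and 324 without Cre_positive replicate 2. Calls fell as much without Cre_positive replicate 1 (345 and 355) or 3 (204 and 258). A list call lost without replicate 2 is therefore not read as particular to that library. The share of all genes at an unadjusted p under 0.05 is not given here, so list counts at that level are not read as particular to a list. Such p-values were common: in edgeR's test that of Hao2, a gene listed below, was 0.0448 and 0.201 after adjustment. Of the podocyte markers 3 rose and none fell (median log2 fold change 0.36), but 1 rose without Cre_positive replicate 2. DESeq2 called 7 higher, and 8 were higher at an unadjusted p under 0.05. Of 10 markers of glomerular endothelium 8 rose and none fell (0.60), and 6 rose without that library. Of 8 mesangial markers 3 rose and 1 fell (0.47), with and without it. Of 12 markers of the later nephron, from the loop of Henle on, 5 rose and 1 fell (0.30), and 4 rose and none fell without it. Of 12 macrophage markers none rose and 2 fell (-0.89), but none fell without that library, while DESeq2 called 7 lower and 8 were lower at an unadjusted p under 0.05. Their part in the levels of the 6 genes was not tested. In such bulk RNA, more tubule cells and more RNA per tubule cell cannot be told apart.

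Kap had by far the widest difference of the 6 genes. Its level was 138, 146 and 448 CPM in Cre_negative replicates 1, 2 and 3 and 6717, 6818 and 5582 CPM in the Cre_positive ones. The genotypes did not overlap, and the lowest Cre_positive library stood 12.5 times above the highest Cre_negative one. In raw counts Kap had 8371, 8167 and 25228 against 358107, 388340 and 299521, or 0.629% of all counts in the Cre_positive libraries. The Cre_negative mean was 244 ± 177 CPM and the Cre_positive mean 6372 ± 686 CPM (SD, n = 3). That is 4.71 on the log2 scale (SE 0.59), or 26.1-fold with a 95% interval of 9.36 to 72.8. In edgeR's quasi-likelihood fit, 0.0301% of the genes tested had a larger positive log2 fold change. Cre_negative replicate 3 held 3.25 times the lowest level of its group, and the Cre_positive libraries lay within 1.22 times of each other. Without Cre_negative replicate 3 the log2 fold change was 5.49. Without Cre_positive replicate 2, the library low in Xist, it was 4.65 for Kap, 1.88 for Prlr, 1.15 for Esr1, 0.091 for Ghr, -0.0056 for Gusb and -0.14 for Odc1.

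**Figure D1:**
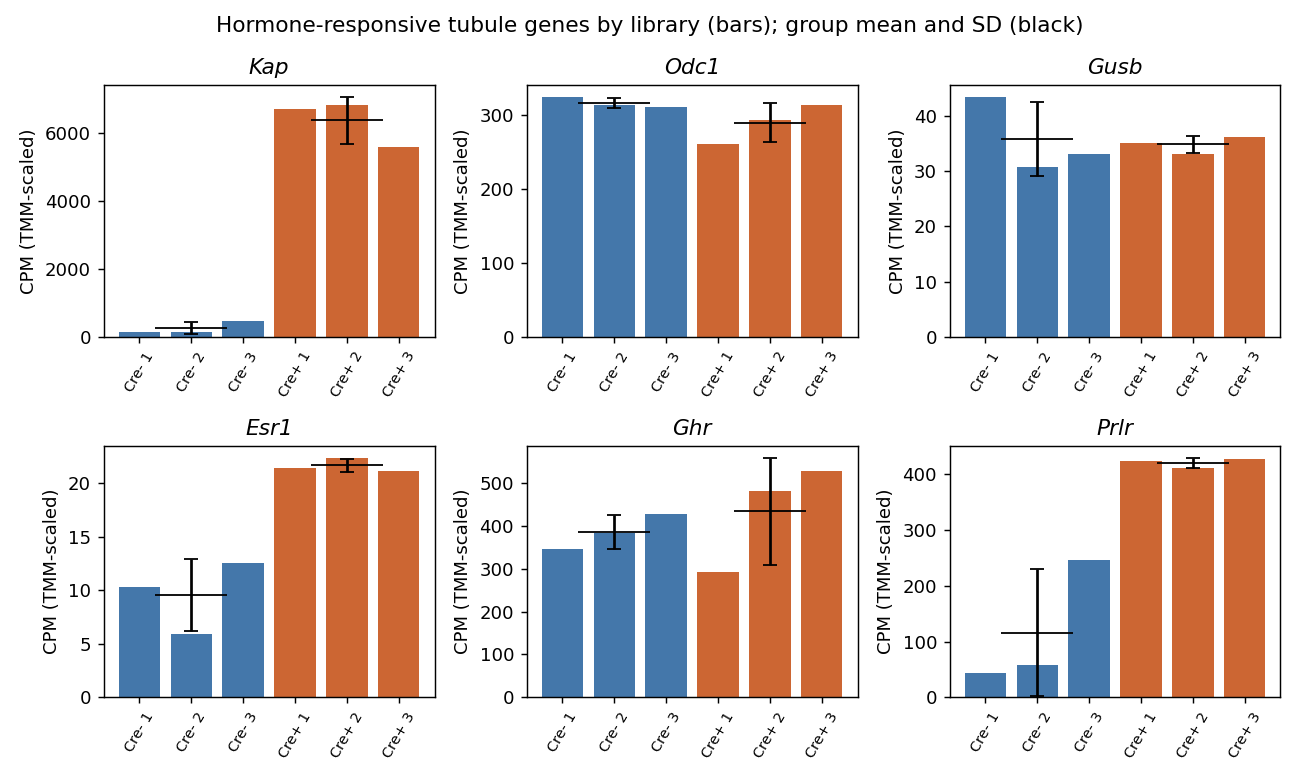
Level of each of the 6 genes in CPM (TMM-scaled, linear axis from 0) by library, blue for Cre-negative and orange for Cre-positive, with the group mean and SD (n = 3) in black. Kap stands at 138 to 448 in blue and 5582 to 6818 in orange, Esr1 and Prlr also do not overlap, and the bars of Odc1, Gusb and Ghr do.

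Odc1 and Gusb, the other classical androgen-induced genes, did not share this difference. Odc1 had 325, 313 and 312 CPM in Cre_negative and 262, 294 and 314 CPM in Cre_positive libraries. The ranges overlapped, and the means of 317 ± 7.12 and 289.7 ± 26.5 CPM (SD, n = 3) differed by -0.13 on the log2 scale (SE 0.084). The 95% interval of the fold was 0.801 to 1.04. Gusb stood at 43.5, 30.8 and 33.1 CPM in Cre_negative and 35.1, 33.2 and 36.2 CPM in Cre_positive libraries. All Cre_positive values lay inside the Cre_negative range, with a log2 fold change of -0.04 (SE 0.13) and an interval of the fold of 0.797 to 1.19. The sign of that small value turned to 0.12 without Cre_negative replicate 1, the highest library.

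Among the receptor genes, Esr1 and Prlr were higher in every Cre_positive library and Ghr was not. Esr1 was low throughout, at 10.3, 5.96 and 12.5 CPM in Cre_negative and 21.5, 22.4 and 21.2 CPM in Cre_positive libraries. Its groups did not overlap, and the log2 fold change was 1.17 (SE 0.24), or 2.26-fold with an interval of 1.54 to 3.31. Prlr had 43.0, 57.7 and 246 CPM in Cre_negative and 423, 410.1 and 427 CPM in Cre_positive libraries. Its Cre_positive values were nearly equal, with an SD of 2.09% of the mean, while its Cre_negative SD was 98.0% of the mean, with replicate 3 at 5.73 times the lowest library. The log2 fold change of Prlr was 1.86 (SE 0.74), and the interval of the fold, 0.959 to 13.7, reaches from no rise to a large one. Without Cre_negative replicate 3 it was 3.06. Ghr had 346, 383 and 426 CPM in Cre_negative and 292, 481 and 527 CPM in Cre_positive libraries. The Cre_positive libraries thus included both the lowest and the highest level, and the log2 fold change was 0.17 (SE 0.21), or 1.13-fold with an interval of 0.797 to 1.59. Without Cre_positive replicate 1 it was 0.39, and its sign turned (-0.061) with libraries scaled to the proximal tubule list.

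In the fit across all genes, 2 of the 6, Kap and Esr1, were past an adjusted p of 0.05 in the higher direction, where 3.73% of all genes were. None of the 6 was past it in the lower direction, where 3.82% of all genes were. Groups did not overlap for 3 of 6, Kap, Esr1 and Prlr, all higher in Cre_positive, against 15.2% of all genes. The same 3 were at least 2-fold higher, against 3.53% of all genes. Since the genes were chosen with this contrast known, nothing is read from these counts. The call of Esr1 ended without Cre_negative replicate 1 or any 1 Cre_positive library (log2 fold change 1.15 to 1.23), and Prlr passed without Cre_negative replicate 3. With those libraries left out, between 1 and 3 of the 6 genes passed.

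**Figure D2:**
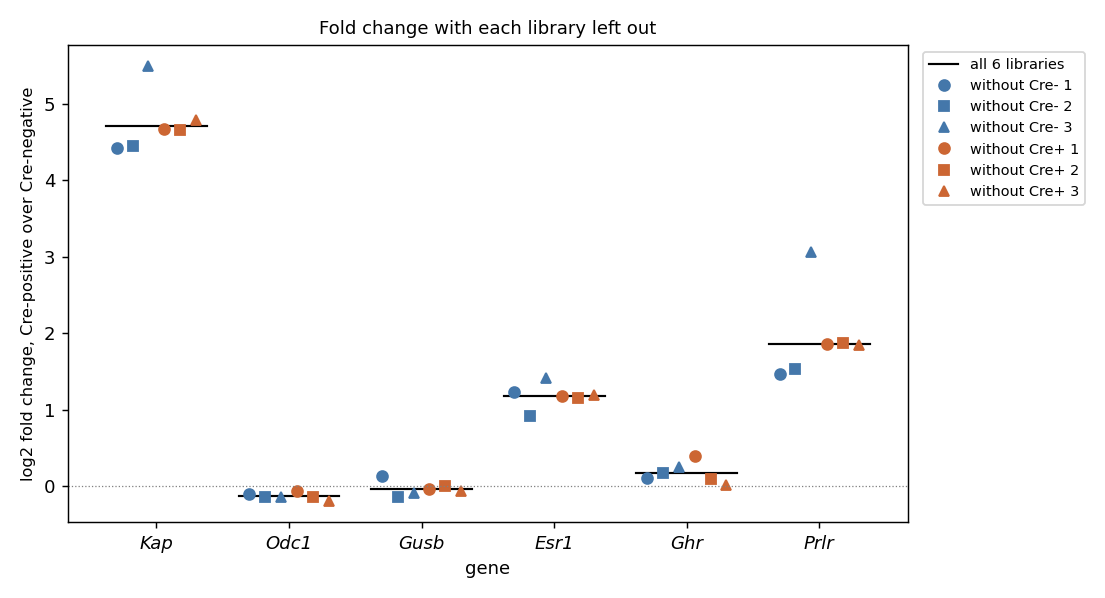
Log2 fold change of each gene, Cre-positive over Cre-negative, with all 6 libraries (black line) and with each library left out (blue, a Cre-negative one; orange, a Cre-positive one). Kap stays between 4.42 and 5.49, Prlr moves from 1.86 to 3.06 without Cre-negative replicate 3, and Odc1 stays between -0.19 and -0.06.

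Per kilobase of exon, Kap was the most abundant of the 6 transcripts in both genotypes and Esr1 the least. Kap stood at 345 ± 250.2 CPM per kilobase in Cre_negative and 9013 ± 971 in Cre_positive libraries (SD, n = 3). Odc1 followed in Cre_negative libraries at 93.0 ± 2.09 CPM per kilobase, then Ghr at 42.5 ± 4.45. Gusb at 7.88 ± 1.48 and Prlr at 7.54 ± 7.39 did not differ beyond their spread. Esr1 closed the order at 0.703 ± 0.245. In Cre_positive libraries the order from the top was Kap, Odc1 (85.1 ± 7.77), Ghr (47.9 ± 13.8), Prlr (27.4 ± 0.573), Gusb (7.67 ± 0.336) and Esr1 (1.59 ± 0.0466). Prlr thus stood above Gusb there, beyond the spread of both. Exon lengths were the union of all annotated exons, from 707 bases for Kap to 15339 for Prlr, which understates genes with many unused exons.

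Kap and Prlr were also alike within the Cre_negative group, where both were highest in replicate 3. That library held 448 CPM of Kap against 138 and 146, and 246 CPM of Prlr against 43.0 and 57.7. Esr1 was highest there too, at 12.5 CPM, though close to the 10.3 CPM of replicate 1. Over all genes with at least 50 counts in total, replicate 3 was also the Cre_negative library nearest to the Cre_positive ones. Its chi-square per degree of freedom against them was 80.7 to 88.1, against 166 to 179 for replicate 1 and 132 to 137 for replicate 2. A level between the groups in replicate 3 is thus not particular to Kap or Prlr. The mean of the 12 injured tubule markers was lowest of its group in that library. It had log2 CPM of 7.13, 5.94 and 5.54 in Cre_negative replicates 1, 2 and 3 and of 3.28, 3.31 and 3.17 in the Cre_positive ones. The course was not graded within the Cre_negative group. From replicate 1 to replicate 2 that mean fell, while Kap stood at 138 and 146 CPM and Esr1 at 10.3 and 5.96 CPM. Among the Cre_negative libraries 9 of the 12 markers were lowest in replicate 3, and the other 3, Vcam1, Sox9 and Timp1, were lowest in replicate 2. Of these 12 markers 8 fell and none rose (3 fell without Cre_positive replicate 2, and DESeq2 called 11), with a median of -3.03, and their summed level was 4612 to 13208 CPM in Cre_negative and 2171 to 2444 CPM in Cre_positive libraries. Havcr1, which encodes the injury marker KIM-1, was at 275, 43.6 and 19.9 CPM and then at 0.281, 0.351 and 0.596 CPM. The part of this list in the levels of Kap, Prlr and Esr1 was not tested.

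The proximal tubule markers moved far less than Kap. Of the 22 markers 7 rose and none fell, with a median log2 fold change of 0.27 against 0.00 over all genes tested. The counts were the same without Cre_positive replicate 2, and DESeq2 called 10 higher and 3 lower. Their mean log2 CPM was 9.33, 9.57 and 9.44 in Cre_negative and 9.60, 9.64 and 9.76 in Cre_positive libraries. Set against that mean in each library, Kap went from -1.74 to 2.96 on the log2 scale, a difference of 4.71. For Prlr the same difference was 2.08, for Esr1 1.02, for Ghr -0.09, for Gusb -0.24 and for Odc1 -0.35. These are differences of mean log2 CPM and not edgeR's fold changes, so they cannot be set beside those given above. In edgeR's fit with libraries scaled to this list, the log2 fold change of Kap was 4.49 (4.71 without the scaling). That of Prlr was 1.64 (1.86 without it) and that of Esr1 0.93 (1.17 without it). Without the scaling, the point estimates of Kap, Prlr and Esr1 lay above the list's median of 0.27. Prlr passed in neither fit, and with the scaling Esr1 did not pass either. The part of tubule content in these differences was not tested. By segment, 5 of 8 markers of the early and middle tubule (S1 and S2) rose and 1 fell, with and without that library, with a median of 0.68. None of 8 markers of the last segment (S3) passed in edgeR's test, with or without it, with a median of 0.13. At an unadjusted p under 0.05, 4 S3 markers were higher and 1 lower, and DESeq2 called 3 and 1.

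**Figure D3:**
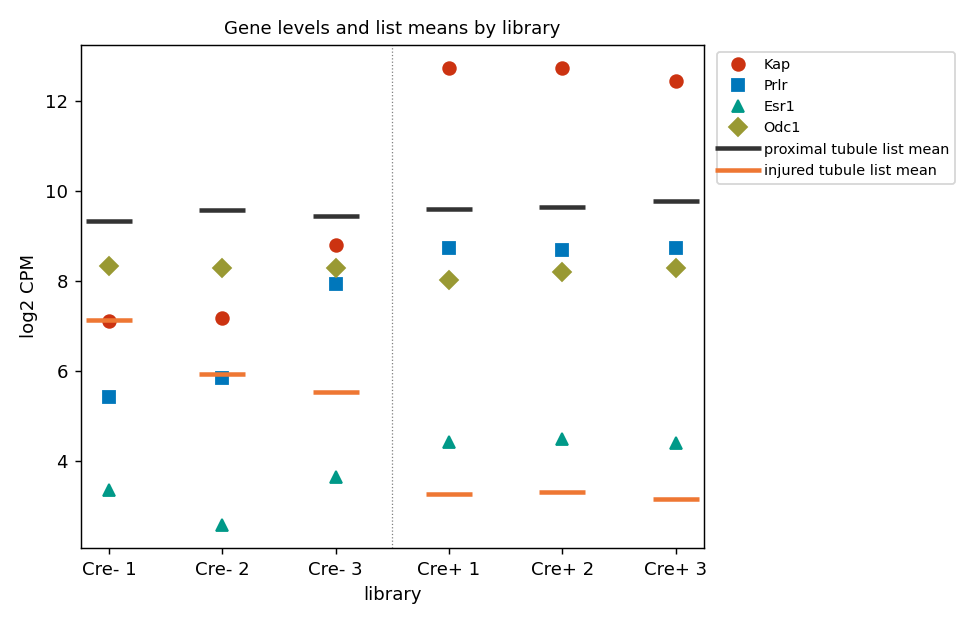
Log2 CPM of Kap, Prlr, Esr1 and Odc1 (symbols) and the list means for proximal tubule and injured tubule, also in log2 CPM, (horizontal marks) by library; levels of different genes are not per length. Kap and Prlr are highest among the Cre-negative libraries in replicate 3, where the injury list is at 5.54, and the injury list is at 3.17 to 3.31 in the Cre-positive libraries.

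Genes known to be more abundant in the kidneys of male mice did not rise as a group with Kap. Of 15 listed genes 14 were tested. None passed in the higher direction in edgeR's test, 3 fell and 11 did not pass, with a median log2 fold change of -0.12. At an unadjusted p under 0.05, 3 were higher and 4 lower, the same numbers that DESeq2 called. Over all 19927 genes DESeq2 called 1267 higher and 1430 lower. None rose and 2 fell without Cre_positive replicate 2. Cyp4a12a, a male-specific cytochrome P450 that hydroxylates fatty acids, went from 9.04, 7.69 and 5.58 CPM to 1.33, 1.67 and 1.90 CPM. Its log2 fold change of -2.19 (SE 0.25, edgeR adjusted p = 0.00208) was opposite in sign to that of Kap. Cyp2j13, another cytochrome P450, went from 4.51, 1.47 and 2.11 CPM to 0, 0.0351 and 0.224 CPM (adjusted p = 0.0225). Agt, the angiotensinogen gene, fell from 152, 173 and 164 CPM to 122, 132 and 109.6 CPM (adjusted p = 0.0217). The call of Cyp2j13 ended without Cre_positive replicate 2 (0.0969), and that of Agt without Cre_negative replicate 2 or Cre_positive replicate 1 or 3 (up to 0.101).

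Slc7a13, a cystine and acidic amino acid transporter of the S3 segment, was the listed male-biased gene nearest to Kap in direction. It had 6.50, 19.2 and 7.64 CPM in Cre_negative and 37.6, 89.2 and 81.9 CPM in Cre_positive libraries. Its groups did not overlap, but its log2 fold change of 2.65 (SE 0.59) did not pass in edgeR's test (adjusted p = 0.0680), and did so without Cre_negative replicate 2 (0.0362). Acsm3, an acyl-CoA synthetase, and Mep1a, a brush border protease, stood at 1.42 (SE 0.38) and 0.51 (SE 0.15) and did not pass either (adjusted p = 0.0759 and 0.0787). They passed without Cre_negative replicate 2 (0.00477) and replicate 3 (0.00319), respectively. Slc22a6, the organic anion transporter OAT1, lay on the other side at -0.71 (SE 0.18, adjusted p = 0.0553) and passed without Cre_negative replicate 2 or 3 (down to 0.0277). The male-biased list shares Slc22a6 with the proximal tubule list and Slc7a13, Slc22a30 and Cyp7b1 with the S3 list.

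Of 10 genes known to be more abundant in female kidneys, 2 rose, none fell and 8 did not pass. Their median log2 fold change was 0.61 and 8 of 10 had a positive sign, where 49.9% of all genes had. DESeq2 called 5 higher and 1 lower, and at an unadjusted p under 0.05 there were 6 and 1. Without Cre_positive replicate 2, 1 rose. Slc6a15, a transporter of neutral amino acids, went from 22.8, 32.8 and 33.9 CPM to 107.4, 59.2 and 79.2 CPM, 1.46 higher on the log2 scale (SE 0.25, adjusted p = 0.0214). Abcc3, an export pump of organic anions, went from 32.5, 31.2 and 43.3 CPM to 89.0, 90.7 and 52.9 CPM, 1.12 higher on the log2 scale (SE 0.23, adjusted p = 0.0380). Both calls ended without Cre_negative replicate 1 or 2, that of Slc6a15 also without Cre_positive replicate 3 (up to 0.0707), and that of Abcc3 without Cre_positive replicate 1 or 2 (up to 0.149). Of the 8 others, Akr1c18 stood at 1.73 (SE 1.07), Slc22a19 at 1.33 (SE 0.31), Slc7a12 at 0.61 (SE 0.24), Hao2 at 0.60 (SE 0.25), Kynu at 0.48 (SE 0.13) and Slc22a7 at 0.39 (SE 0.42). Cyp4a14 stood at -0.64 (SE 0.31) and Cyp4a10 at -0.78 (SE 0.23). Slc22a19, an organic anion transporter gene, had 88.2, 130.7 and 85.4 CPM in Cre_negative and 159, 305.1 and 303.1 CPM in Cre_positive libraries. Its groups did not overlap, its adjusted p was 0.0590, and it passed without Cre_positive replicate 1 (0.00922). Without Cre_negative replicate 3, Slc7a12, Hao2 and Kynu passed (0.0225, 0.00884 and 0.0304), and without Cre_negative replicate 1 Cyp4a10 did (0.0219). Signs thus differed within this list. Slc7a12 and Hao2 were highest among the Cre_negative libraries in replicate 3, as Kap and Prlr were.

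**Figure D4:**
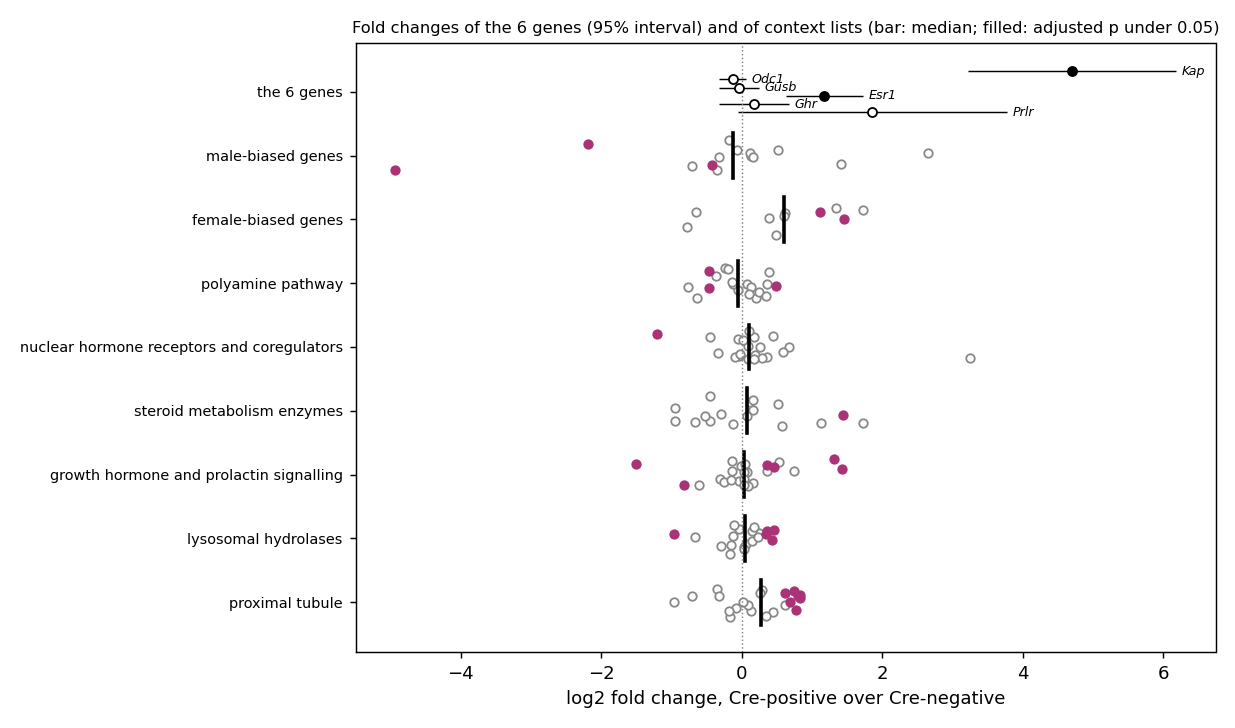
Log2 fold change, Cre-positive over Cre-negative, of the 6 genes (black, with 95% intervals; filled where the adjusted p was under 0.05) and of the genes in 8 lists (points; filled where the adjusted p was under 0.05; vertical bar, the list median). Kap lies at 4.71, to the right of every point of the lists, Odc1 and Gusb lie at -0.13 and -0.04, and the list medians run from -0.12 to 0.61.

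Most partners of Odc1 in polyamine metabolism did not pass either. Of 19 genes tested, 1 rose, 2 fell and 16 did not pass, with a median of -0.05. Without Cre_positive replicate 2, 1 rose and none fell. DESeq2 called 3 higher and 5 lower, 4 and 6 were so at an unadjusted p under 0.05, and scaling to the proximal tubule list gave 0 and 6 with a median of -0.28. Slc3a2, the heavy chain of several amino acid transporters, rose by 0.49 (SE 0.080, adjusted p = 0.00960). Arg2, the arginase that makes ornithine, fell by 0.46 on the log2 scale (SE 0.10, adjusted p = 0.0229). Azin1, the antizyme inhibitor that keeps ornithine decarboxylase from degradation, fell by 0.47 on the log2 scale (SE 0.11, adjusted p = 0.0365). Srm, the spermidine synthase gene, stood at -0.05 (SE 0.10) and Oaz1, the antizyme gene, at 0.24 (SE 0.082), and neither passed. The call of Slc3a2 ended without Cre_positive replicate 3 (0.0608). Those of Arg2 (up to 0.0905) and Azin1 (up to 0.142) ended without Cre_negative replicate 2 or any 1 Cre_positive library, and that of Azin1 also without Cre_negative replicate 1.

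Of the 21 nuclear receptors and coregulators tested, 1 fell, none rose and 20 did not pass in edgeR's test, with a median of 0.10 (-0.13 with libraries scaled to the proximal tubule list, where the median of all genes was -0.22). DESeq2 called 2 higher and 1 lower, and 7 were higher and 2 lower at an unadjusted p under 0.05. The counts in edgeR's test were the same without Cre_positive replicate 2. The single fall in that test was Fkbp5, a chaperone gene that glucocorticoids and androgens are known to induce. It went from 57.5, 66.6 and 41.9 CPM to 22.3, 23.1 and 26.4 CPM, a difference of -1.21 on the log2 scale (SE 0.16, adjusted p = 0.00532), and passed with each library left out (up to 0.0345). Among 17 steroid-metabolising enzymes tested of 21 listed, 1 rose, none fell and 16 did not pass in edgeR's test, with a median of 0.07 (-0.14 with that scaling). DESeq2 called 2 higher and 4 lower, as many as at an unadjusted p under 0.05, and the tubule scaling gave 1 and 4. Leaving out Cre_positive replicate 2 did not change the counts. That was Hsd3b2, a 3-beta-hydroxysteroid dehydrogenase gene, which went from 22.9 ± 3.42 to 62.3 ± 15.9 CPM (SD; log2 fold change 1.44, SE 0.19, adjusted p = 0.00653). It too passed with each library left out (up to 0.0280), although reads of the closely related Hsd3b genes can be hard to tell apart.

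Downstream of Ghr and Prlr, 4 of 24 signalling genes rose, 2 fell and 18 did not pass, with a median of 0.03 (-0.19 with that scaling). Without Cre_positive replicate 2, 1 rose and 1 fell, with DESeq2 5 and 2, and with the tubule scaling 1 and 3. Stat3, a factor of cytokine signalling, fell from 167, 138 and 133 CPM to 79.7, 79.1 and 87.7 CPM (log2 fold change -0.83, SE 0.10, adjusted p = 0.00223). Socs3, the feedback inhibitor it induces, fell by 1.51 on the log2 scale (SE 0.36, adjusted p = 0.0481). Stat5b, which carries the growth hormone signal, rose by 0.36 (SE 0.082, adjusted p = 0.0315) and Igf1, the growth factor induced by it, by 1.43 (SE 0.33, adjusted p = 0.0490). The carrier proteins Igfbp3 and Igfbp4 rose by 1.31 (SE 0.27) and 0.46 (SE 0.10). Igf1 had 6.49, 7.66 and 15.3 CPM in Cre_negative and 30.6, 23.4 and 24.9 CPM in Cre_positive libraries, so it too was highest in replicate 3 of its lower group. The feedback genes Socs2 and Cish, both STAT5 targets, stood at -0.61 (SE 0.41) and 0.36 (SE 0.26) and did not pass. Of the 6 calls only that of Stat3 held with each library left out (up to 0.0190). Those of Igf1, Igfbp3, Igfbp4 and Socs3 ended without Cre_negative replicate 2 or any 1 Cre_positive library. The call of Stat5b ended without Cre_negative replicate 1 or 2 or Cre_positive replicate 1 or 3, and that of Igf1 also without Cre_negative replicate 1 (adjusted p up to 0.155 for these 5).

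The lysosomal hydrolases that work beside Gusb had a median of 0.05 (-0.18 with that scaling), with 4 of 20 higher, 1 lower and 15 not past the threshold. Without Cre_positive replicate 2, 2 were higher and 1 lower. DESeq2 called 5 higher and 3 lower, and the tubule scaling reversed the balance, with 0 higher and 4 lower. Gaa, the acid alpha-glucosidase gene, rose by 0.46 (SE 0.067, adjusted p = 0.00597). Naglu and Man2b1, which cut heparan sulfate and mannose chains, rose by 0.36 (SE 0.087) and 0.35 (SE 0.086). Ctsd, the cathepsin D gene, went from 1585, 1140 and 1037 CPM to 652, 659.9 and 622 CPM, a difference of -0.96 on the log2 scale (SE 0.15, adjusted p = 0.00849). The Gusb change of -0.04 thus lay between these and near the list's median. Gaa passed with each library left out (up to 0.0411), though not with that scaling (0.194). The calls of Naglu and Man2b1 ended without any 1 Cre_positive library or Cre_negative replicate 2, Naglu also without Cre_negative replicate 3 and Man2b1 without replicate 1 (up to 0.155). The call of Ctsd ended without Cre_positive replicate 3 (0.0540).

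The genes whose pattern over the 6 libraries was most like that of Kap were Slc34a3, Dio1, Loxl4, Dusp15 and Lpl. They had the highest Pearson correlations of log2 CPM with Kap among 141 genes with a mean of at least 10 CPM and a range of at least 2 log2 units. The libraries share the genotype split, so these values describe the pattern and no test is attached. Slc34a3 (r = 0.994), a renal phosphate cotransporter gene, had 23.4, 23.4 and 40.9 CPM in Cre_negative and 96.1, 91.8 and 101 CPM in Cre_positive libraries. Dio1 (r = 0.982), a deiodinase that activates thyroid hormone, had 23.6, 27.9 and 44.0 and then 94.5, 82.6 and 72.2 CPM. Loxl4 (r = 0.980) had 4.35, 3.11 and 12.3 and then 41.7, 42.2 and 32.4 CPM. All 3 shared the higher level of Cre_negative replicate 3, the library of its group nearest to Cre_positive over all genes. Dusp15 (r = 0.978) did so too, at 20.1 CPM against 9.78 and 13.8. Lpl (r = 0.977), the lipoprotein lipase gene, did not: it had 79.8, 81.1 and 82.1 CPM in Cre_negative and 362, 384 and 376 CPM in Cre_positive libraries. All but Loxl4 were past the threshold, and Loxl4 passed without Cre_negative replicate 3. The calls of Dio1 (up to 0.0795) and Dusp15 (up to 0.0603) ended without Cre_negative replicate 2 or Cre_positive replicate 2 or 3, and that of Dio1 also without Cre_positive replicate 1.

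**Figure D5:**
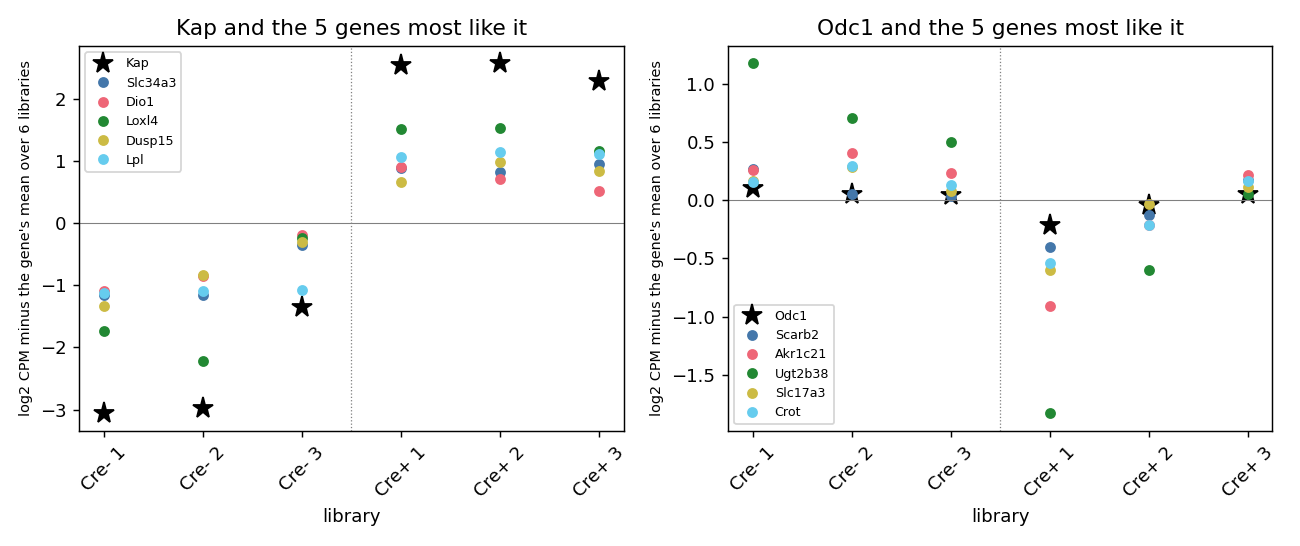
Log2 CPM minus each gene's mean over the 6 libraries, for Kap (left, black stars) or Odc1 (right, black stars) and the 5 genes most like each (coloured points). On the left every gene is below 0 in the 3 Cre-negative and above 0 in the 3 Cre-positive libraries; on the right the lowest values are in Cre-positive replicate 1.

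Odc1 varied little, from 8.03 to 8.34 in log2 CPM, and was lowest in Cre_positive replicate 1. The 5 genes most like it, among 3281 with a range of at least 0.5 log2 units, were Scarb2, Akr1c21, Ugt2b38, Slc17a3 and Crot, with r from 0.950 to 0.973. Odc1 itself did not reach that range. Over 6 libraries and so many candidates, correlations this high can arise by chance, so no shared pattern is read from them. Akr1c21, a hydroxysteroid dehydrogenase gene, had 514, 571 and 506 CPM in Cre_negative and 229.5, 371 and 501 CPM in Cre_positive libraries. None of the 5 passed. The same library was also lowest for Ghr among all 6, at 292 CPM. Akr1c18, which inactivates progesterone, had 2.85 CPM there against 42.7 and 41.1 in the other Cre_positive libraries. Its Cre_negative levels were low too, at 13.2, 3.40 and 9.51 CPM, so the 2.85 CPM was close to Cre_negative replicate 2. Kap and Prlr were not low in Cre_positive replicate 1, at 6717 and 423 CPM.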

How the data were processed

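RNA of glomeruli from 3 Cre_negative and 3 Cre_positive samples was sequenced as poly(A)-selected, dUTP-marked read pairs, per the labels' protocols. The authors deposited 1 table of whole-number counts per Ensembl gene. GRCm39, HISAT2, StringTie, fastp and edgeR are named in the submitters' processing notes, with no role. For annotation release, strand setting and reads that match more than 1 place: not given in the sources used here. Symbols and exon lengths came from GENCODE M21 (GRCm38; 51880 of 57132 rows had a symbol). Exons of 1 further gene, Gm21973, overlap those of Prlr on the same strand in that annotation, and it had at most 1 count per library.

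Counts were fitted with edgeR 4.0.16 in R 4.3.3 (filterByExpr, TMM factors, robust quasi-likelihood test) with Benjamini-Hochberg adjustment over all 19927 genes and a threshold of 0.05. Each SE was the absolute log2 fold change divided by the root of its F. CPM are TMM-scaled, and log2 CPM use a prior count of 2. Alternatives were other scalings and filters, DESeq2 1.42.0, limma 3.58.1 voom, a replicate block and each library left out. On simulated counts for Cre_positive against Cre_negative (19446 genes), 67 genes were changed 1.5-fold, 67 2-fold and 66 4-fold, up or down. The lowest-expressed genes were left unchanged. Of the changed genes 31.3%, 70.1% and 89.4% were called, in that order. Unchanged genes made up 11.2% of calls, above the threshold of 0.05. Fewer genes were changed than were called in the data, so these shares may not carry over to it. The members and lists were chosen with earlier results of these data known. Named were all members, up to 6 called genes per list by smallest p (in uncalled lists the smallest p) and the 5 genes most like Kap and Odc1. Further list genes were named after their values were seen. No pair of libraries was a duplicate (chi-square per degree of freedom at least 20.6). Some genes of the lists are counted but not reported by name here.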

Additional observations from a re-analysis of the deposited data

How the results depend on the processing

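Kap kept its direction and its call under every alternative run (log2 fold change 4.42 to 5.49), and none of the 6 genes was called lower under any. Leaving out single libraries gave 1 to 3 of the 6 genes called higher, 204 to 987 genes called higher over all and 258 to 1052 called lower. DESeq2 called 1267 higher and 1430 lower. Scaling the libraries to the proximal tubule list, added after seeing the data, moved the median of all genes to -0.22 and gave 304 higher, 2101 lower and 1 of the 6 genes. With that scaling the log2 fold change was 4.49 for Kap, 1.64 for Prlr, 0.93 for Esr1, -0.061 for Ghr, -0.28 for Gusb and -0.36 for Odc1. The scaling shifts all genes of a library alike. Taking off the median of all genes therefore nearly returns the values without it (4.71 for Kap) and is no separate check. Small values changed sign: Gusb to 0.016 with limma voom, and between -0.14 and 0.12 with libraries left out, and Ghr to -0.061 with the tubule scaling. The cause was not tested. The tubule scaling also ended the calls of Esr1, Abcc3, Slc3a2, Stat5b, Igfbp4, Igf1, Gaa, Naglu and Man2b1. Same-numbered samples of the genotypes had correlations of their deviations of 0.0547, 0.0551 and 0.0173, each sample's highest but too low to pair them. With the replicate block the log2 fold change of Kap was 4.95 and 737 genes were higher and 804 lower. Over all alternatives, 0 to 3 male-biased and 0 to 5 female-biased genes were called higher, and 2 to 4 and 0 to 1 lower. Each of the 6 genes had at least 333 counts in every library, so the 3 samples a group set the precision.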
